A study of Arabidopsis thaliana with 8 samples.

Results

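Of the 3439 probes of an Arabidopsis thaliana array, 80 were listed at exactly 0 on at least 2 of the 4 high CO2 arrays and above 0 on all 4 normal CO2 arrays, and these 80 are the set described. Total RNA was measured from wild-type plants of the ecotype Columbia 0 on 8 arrays. On 4 arrays the plants had finally spent 1 d in air with 1% CO2 by volume, and on the other 4 they had grown at normal CO2, given as 0 d. All plants carry the wild-type genome, and the samples hold no plants that stayed at normal CO2 through the further day, so the CO2 level, the day and the move cannot be told apart. The labels name no tissue, no plant age and no array type, and of 17 marker genes of leaf, root, pollen and seed 0 lie on a probe with 1 gene name. No label ties the arrays of a group to separate plants, so spreads and p-values describe arrays and may be technical. RNA was taken from bulk material, in which fewer cells of a type and less RNA per cell cannot be told apart.

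Carbon dioxide is the substrate of Rubisco, the enzyme that fixes carbon in the chloroplast, and air rich in CO2 suppresses photorespiration and lets sugars and starch build up in leaves. Transcripts answer to such a change by rising and falling over a wide range of levels. On an array, a transcript near the lower end of detection can be read as a small number or as no signal. The labels do not say how the submitters set a spot to 0.

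The rule that chose the 80 probes uses the same contrast that it describes, so their difference between the groups is a description with no test. They make up 2.33% of the table. The rule with the groups exchanged, above 0 on all 4 high CO2 arrays and 0 on at least 2 normal CO2 arrays, holds for 12 probes, or 0.349% of the table. Of the 80 probes, 20 carry 1 gene name, 16 several and 44 none, against 692, 870 and 1877 of all probes. The share with 1 gene name is 25% of the 80 and 20.1% of all probes.

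A drop to 0 in every high CO2 array was rare. Of the 80 probes, 64 were at 0 on exactly 2 high CO2 arrays, 14 on 3 and 2 on all 4. The 2 probes at 0 on all 4 are numbers 3502, which is annotated to several genes, and 4165, which has no gene name. Probe 4165 was at 0 on the 4 high CO2 arrays and had relative intensities of 0.128, 0.126, 0.121 and 0.0771 on the normal CO2 arrays 1 to 4. Probe 3502 was at 0 on the 4 high CO2 arrays and had 0.208, 0.0111, 0.172 and 0.128 on the normal CO2 arrays. Each was listed at 0 in a whole group, so no fold change is given. For the other 78 probes the name of a transcript that drops to zero goes further than the values do, and they are called here probes at 0 on 2 or more high CO2 arrays.

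**Figure D1:**
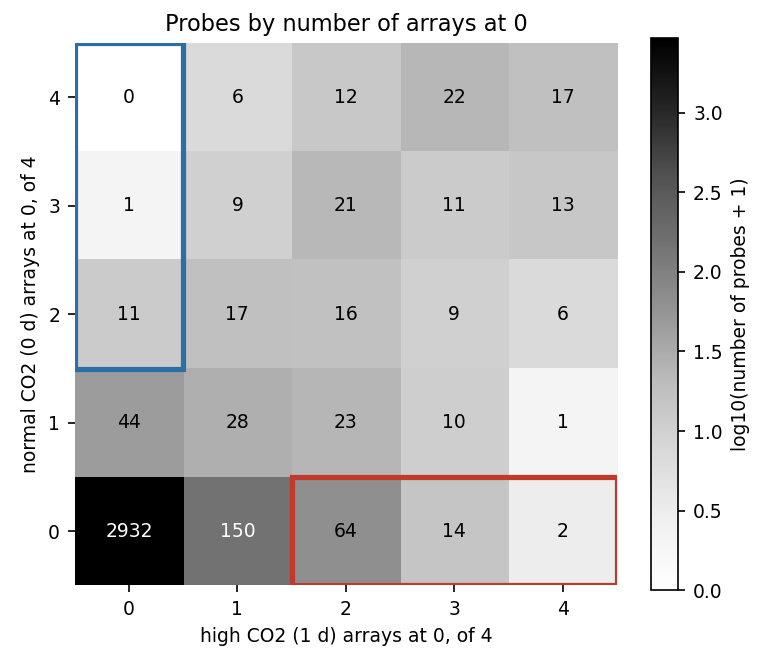
Number of probes by how many of the 4 high CO2 arrays (horizontal) and how many of the 4 normal CO2 arrays (vertical) list them at 0, with shading on a log10 scale. The red frame holds the 80 probes (64, 14 and 2), the blue frame the 12 of the exchanged rule (11, 1 and 0), and 2932 probes were above 0 on all 8 arrays.

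The arrays differed in how many probes they list at 0. The high CO2 arrays list 196 to 219 of all probes at 0 and the normal CO2 arrays 133 to 174. The part of this difference in the counts of 80 and 12 was not tested. Array medians over all probes were 0.212 to 0.28 at high CO2 and 0.221 to 0.256 at normal CO2, on a scale that ends at 100 on every array. Within a group, arrays 1 and 2 and arrays 3 and 4 were more alike than other arrays. On the log2 scale, over the probes above 0 on all arrays, Pearson's r across probes, which are not independent, was 0.937 to 0.982 within these pairs and 0.902 to 0.929 for other arrays of a group. The labels do not say what sets the pairs apart.

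The 80 probes were dim where they were above 0. Their mean over the normal CO2 arrays had a median of 0.0565 (lowest 0.0145, highest 0.456), against a median of 0.282 for the other probes above 0 on all 4 normal CO2 arrays. Of the 80, 79 lay below the median of all 3162 probes above 0 on those arrays, and 74 lay in the dimmest 25% of these, which ends at 0.133. The rule took in 9.36% of the probes in that dimmest part, 0.633% of the next 25%, 0.127% of the next and 0% of the brightest 25%. The 12 probes of the exchanged rule were brighter in the group where they were above 0, with a median of 0.134 over the high CO2 arrays. Cut the same way by the high CO2 level, from dim to bright, they made up 0.937%, 0.536%, 0% and 0.134% of the 4 parts. The depth behind a spot is unknown for such values, and the number of arrays limits the precision.

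**Figure D2:**
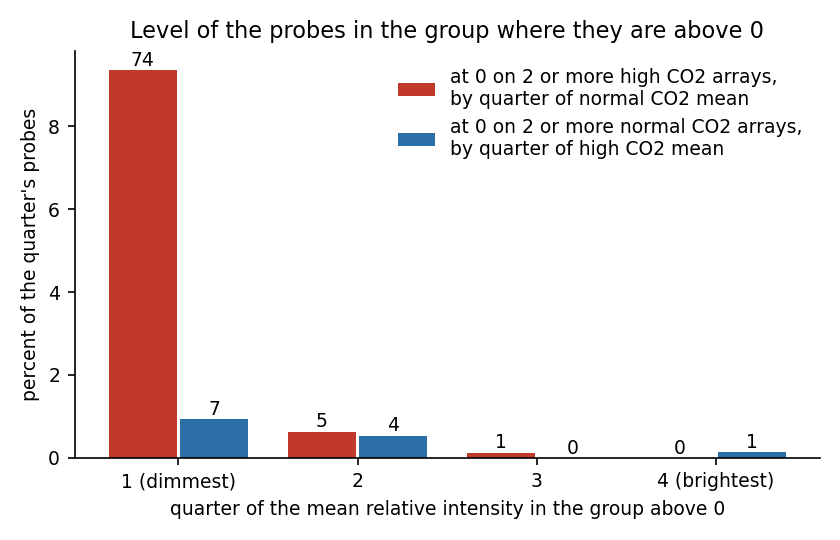
Percent of probes (vertical) that the rule (red, ranked by normal CO2 mean) and the exchanged rule (blue, ranked by high CO2 mean) take in from each 25% of the ranked mean relative intensities (horizontal, dim to bright), with the number of probes above each bar. The red class has 74 of its 80 probes in the dimmest 25%.

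The brightest of the 80 owes its mean to 1 array. Probe 3212, which has no gene name, was at 0, 0, 0 and 0.146 on the high CO2 arrays and at 0.0338, 0.149, 1.57 and 0.0751 on the normal CO2 arrays. Only normal CO2 replicate 3 was high, and the high CO2 array above 0 lay between the other normal values. The next brightest, probe 4034, also without a gene name, was steadier, at 0, 0, 0.0429 and 0.117 on the high CO2 arrays and 0.168, 0.187, 0.187 and 0.224 on the normal CO2 arrays. Its groups did not overlap. Over the 4 normal CO2 arrays the coefficient of variation had a median of 40.6% for the 80 probes, 33.1% for the other probes of the dimmest 25% and 20.3% for all others above 0 on these arrays.

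On the high CO2 arrays the 80 probes have 320 values, of which 178 were 0 and 142 above 0. Of those 142 values, 61 lay below all 4 normal CO2 values of the same probe, 46 within their range and 35 above all of them. A high CO2 value above every normal one was found for 27 of the 80 probes, and 8 probes had a higher mean at high CO2 than at normal CO2 although the rule asks for zeros there. All 4 high CO2 arrays lay below all 4 normal CO2 arrays for 26 of the 80 probes. Of all probes 16.0% lay so, and since the rule used this contrast nothing is read from the comparison. Summed over the 80 probes, relative intensity was 1.51, 2.21, 2.22 and 1.97 on high CO2 arrays 1 to 4 and 6.14, 5.59, 6.71 and 5.04 on normal CO2 arrays 1 to 4.

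The zeros often fell on a pair of like arrays. Of the 64 probes at 0 on exactly 2 high CO2 arrays, 19 were at 0 on arrays 1 and 2, 16 on arrays 3 and 4, and 29 on an array of each pair. The shared pairs thus hold 54.7% of these probes, and they hold 50% of the 72 other probes with exactly 2 high CO2 arrays at 0. Under the exchanged rule 7 of the 11 probes with exactly 2 zeros were at 0 on normal CO2 arrays 3 and 4. High CO2 arrays 1 to 4 list 48, 44, 41 and 45 of the 80 probes at 0. The rule asks for at least 2 arrays at 0, so these counts do not show how far a single array decided which probes were taken. Leaving out high CO2 replicates 1 to 4 in turn gave 44, 49, 53 and 46 probes in place of 80.

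**Figure D3:**
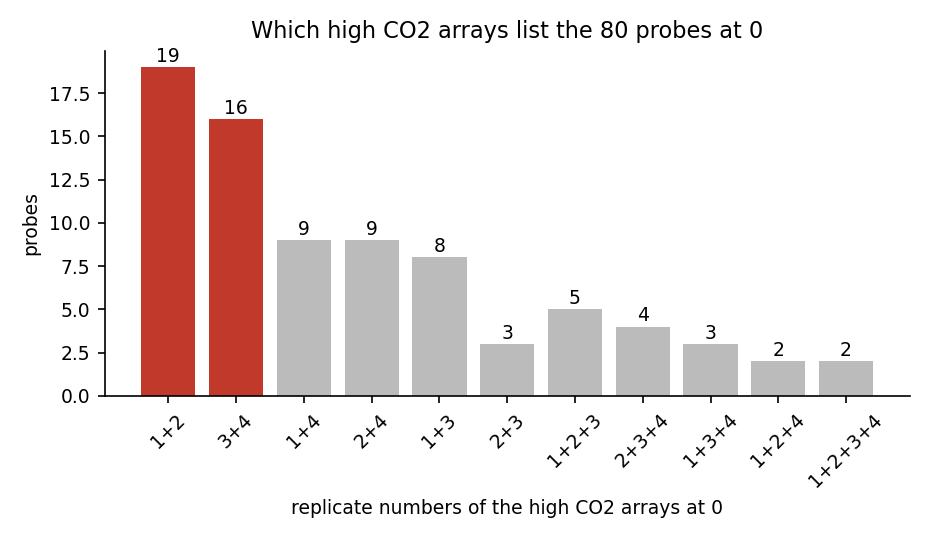
Number of the 80 probes (vertical) by which high CO2 replicates list them at 0 (horizontal). The red bars mark replicates 1 and 2 (19 probes) and 3 and 4 (16 probes), and 2 probes were at 0 on all 4.

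The 20 probes with 1 gene name had normal CO2 means of 0.0145 to 0.14, with a median of 0.0511. None of them was at 0 on all 4 high CO2 arrays. In 4 of the 20 all high CO2 arrays lay below all normal ones, namely AT5G44150, AT4G38670, AT3G08000 and PRA1.B3. Of all probes 16.0% lay so, and the rule used this contrast, so the 4 are a description. The roles given for these genes are general knowledge of these loci and are not in the files, whose gene table gives a name other than the locus tag for 2 of the 20. No gene of the 20 has another probe with 1 gene name, so no value could be checked on a second probe.

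The 6 brightest named probes ran from AT5G44150 down to AT1G50750. AT5G44150 was at 0, 0.0332, 0 and 0.0807 on high CO2 arrays 1 to 4 and at 0.113, 0.131, 0.107 and 0.209 on normal CO2 arrays 1 to 4, with a normal CO2 mean of 0.14 ± 0.0471 (SD, n = 4). Every high CO2 array was below every normal one, and the zeros fell on replicates 1 and 3. AT4G38670, a member of the thaumatin family of pathogenesis-related proteins, was at 0.0321, 0.0331, 0 and 0 on the high CO2 arrays and at 0.0588, 0.0963, 0.0998 and 0.109 on the normal CO2 arrays (0.091 ± 0.0221, SD, n = 4). Its groups did not overlap either, and both high CO2 arrays above 0 lay close together. AT1G11730, a putative galactosyltransferase, was at 0, 0.053, 0.112 and 0 on the high CO2 arrays and at 0.145, 0.0854, 0.122 and 0.0892 on the normal CO2 arrays (0.11 ± 0.0284, SD, n = 4). Here high CO2 replicate 3 lay inside the normal range, so the groups overlapped.

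The normal CO2 arrays themselves split by pair for the other 3. AT3G53470 was at 0, 0, 0.0157 and 0.0359 on the high CO2 arrays and at 0.159, 0.136, 0.0324 and 0.0631 on the normal CO2 arrays. AT3G26730, a RING-type protein of the kind that act in ubiquitin transfer, was at 0, 0.0442, 0 and 0.0015 on the high CO2 arrays and at 0.11, 0.171, 0.0419 and 0.0311 on the normal CO2 arrays. For both genes normal CO2 arrays 1 and 2 were the higher ones. AT1G50750, a plant mobile domain protein, went the other way, with 0, 0, 0.0413 and 0.0516 on the high CO2 arrays and 0.0451, 0.0503, 0.12 and 0.116 on the normal CO2 arrays. Its high CO2 arrays 3 and 4 were level with its normal arrays 1 and 2, so the groups overlapped although within each pair of arrays the high CO2 values were lower.

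**Figure D4:**
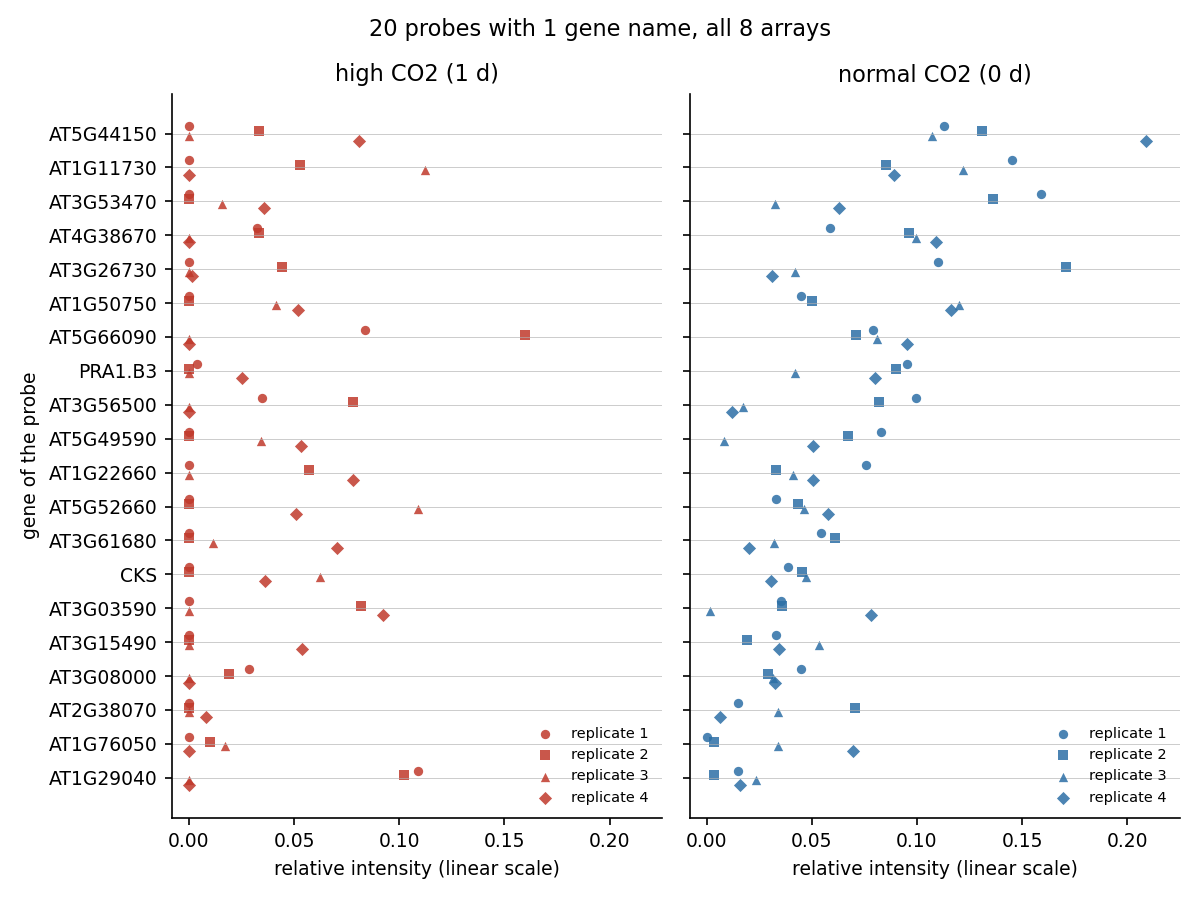
Relative intensity (horizontal, linear scale) of the 20 probes with 1 gene name on the 4 high CO2 arrays (left, red) and the 4 normal CO2 arrays (right, blue), ordered by normal CO2 mean with the brightest at the top. Marker shapes give the replicate, and each gene has 2 or 3 high CO2 arrays at 0.

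The remaining named probes, for which the choice to give all values was made after they had been seen, follow by role. Among genes that act on RNA or in the nucleus, AT1G22660 encodes a nucleotidyltransferase that adds the CCA end to transfer RNAs. It was at 0, 0.0573, 0 and 0.0782 on the high CO2 arrays and at 0.0756, 0.0328, 0.0412 and 0.0508 on the normal CO2 arrays, so that both high CO2 arrays above 0 exceeded the normal mean. AT5G52660, a MYB-like factor of the REVEILLE family, whose members act around the circadian clock, was at 0, 0, 0.109 and 0.051 at high CO2 and at 0.033, 0.0435, 0.0465 and 0.0576 at normal CO2. Its highest value of all 8 arrays was thus on a high CO2 array. AT3G03590, a SWIB domain protein, was at 0, 0.0817, 0 and 0.0924 at high CO2 and at 0.0355, 0.0359, 0.00153 and 0.0784 at normal CO2. For this gene both high CO2 arrays above 0 exceeded every normal array. AT3G08000, an RNA-binding protein, was at 0.0284, 0.0191, 0 and 0 at high CO2 and at 0.0451, 0.0292, 0.0315 and 0.0324 at normal CO2, without overlap, although the gap between high CO2 replicate 1 and normal replicate 2 was small. AT1G76050, a pseudouridine synthase family protein, was at 0, 0.0101, 0.0169 and 0 at high CO2 and at 0.000358, 0.00351, 0.0338 and 0.0696 at normal CO2. It met the rule with a normal CO2 replicate 1 that was barely above 0, and its groups overlapped.

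Among genes of membranes, lipids and the cell wall, PRA1.B3 belongs to the prenylated RAB acceptor family of the secretory pathway. It was at 0.0039, 0, 0 and 0.0253 on the high CO2 arrays and at 0.0955, 0.0899, 0.0422 and 0.0801 on the normal CO2 arrays, where every normal array was above every high CO2 array. CKS makes the activated form of Kdo, a sugar of the pectin rhamnogalacturonan II. It was at 0, 0, 0.0624 and 0.036 at high CO2 and at 0.0387, 0.0454, 0.0473 and 0.0306 at normal CO2, so high CO2 replicate 3 was the highest of all 8. AT3G61680, a plastid lipase, was at 0, 0, 0.0113 and 0.0705 at high CO2 and at 0.0543, 0.0611, 0.0323 and 0.0201 at normal CO2, again with a high CO2 array on top. AT3G15490, related to the IST1 proteins of endosomal sorting, was at 0, 0, 0 and 0.0537 at high CO2 and at 0.0329, 0.0194, 0.0533 and 0.0346 at normal CO2. It and AT2G38070 were the only named genes at 0 on 3 high CO2 arrays, and AT2G38070 kept 0.00797 on replicate 4, against 0.0148, 0.0708, 0.034 and 0.00658 at normal CO2.

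AT1G29040, AT5G66090, AT3G56500 and AT5G49590 complete the named probes. AT1G29040, the dimmest of the 80 at normal CO2, was at 0.109, 0.102, 0 and 0 on the high CO2 arrays and at 0.0148, 0.00377, 0.0234 and 0.016 on the normal CO2 arrays. High CO2 arrays 1 and 2 were above every normal array and arrays 3 and 4 below, so its pairs of arrays pointed in opposite directions. AT5G66090 was at 0.0838, 0.16, 0 and 0 at high CO2 and at 0.0792, 0.0709, 0.0811 and 0.0954 at normal CO2. In arrays 1 and 2 its high CO2 values were above the normal ones. AT3G56500, at 0.0346, 0.078, 0 and 0 at high CO2 and 0.0997, 0.0818, 0.0172 and 0.0119 at normal CO2, and AT5G49590, at 0, 0, 0.0344 and 0.0531 at high CO2 and 0.0828, 0.0671, 0.00815 and 0.0505 at normal CO2, both overlapped between the groups.

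Just inside the rule, the 64 probes with exactly 2 high CO2 arrays at 0 had normal CO2 means of 0.0145 to 0.191. Just outside, 150 probes were at 0 on 1 high CO2 array and above 0 on all 4 normal arrays, with normal CO2 means of 0.0126 to 0.358. The brightest of these with 1 gene name was GH9B16, a glycosyl hydrolase of the endoglucanase family, at 0.0433, 0, 0.0848 and 0.0838 on the high CO2 arrays and at 0.372, 0.256, 0.193 and 0.189 on the normal CO2 arrays. On the other side of the rule, 34 probes were at 0 on at least 2 high CO2 arrays and above 0 on 3 normal arrays, with normal CO2 means of 0.00117 to 0.104. AT1G04330 was the brightest named one, at 0.168, 0.211, 0 and 0 on the high CO2 arrays and at 0.169, 0.143, 0.0205 and 0 on the normal CO2 arrays. Its arrays 3 and 4 were low in both groups.

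The exchanged rule names 6 genes, and 2 of them had every high CO2 array above every normal one. Of all probes 16.4% lay so, and since the rule used this contrast nothing is read from the comparison. AT1G27610 was at 0.0945, 0.221, 0.217 and 0.331 on the high CO2 arrays and at 0.024, 0.00246, 0 and 0 on the normal CO2 arrays. The probe annotated to AT5G65360, a gene of histone H3.1, was at 0.0241, 0.0234, 0.0196 and 0.0165 on the high CO2 arrays and at 0, 0, 0 and 0.00187 on the normal CO2 arrays. Neither gene's groups overlapped, but histone H3.1 genes are near-identical copies, so this signal may hold several of them. APTX, the aprataxin-like protein of DNA end repair, was at 0.0347, 0.127, 0.348 and 0.291 at high CO2 and at 0, 0.0558, 0 and 0.0156 at normal CO2. AT2G17670, a protein with helical repeats, was at 0.276, 0.247, 0.0402 and 0.118 at high CO2 and at 0.0981, 0.0781, 0 and 0 at normal CO2. The groups overlapped in both genes, but in AT2G17670 the high CO2 arrays were the higher ones within each pair of arrays. AT1G17850, a rhodanese domain protein, was at 0.102, 0.114, 0.0924 and 0.0091 at high CO2 and at 0.0265, 0.0186, 0 and 0 at normal CO2. AT1G21350, of the thioredoxin superfamily, was at 0.00469, 0.14, 0.0241 and 0.0128 at high CO2 and at 0, 0.0138, 0.0181 and 0 at normal CO2, where replicate 2 alone was well above the normal arrays.

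To look at arrays the choice had not used, the rule was applied to a pair of arrays per group and the probes it took were read in the other pair. Values were compared as deposited, without scaling. Over all probes, the medians of arrays 3 and 4 were 0.28 and 0.272 at high CO2 and 0.221 and 0.227 at normal CO2. Those of arrays 1 and 2 were 0.215 and 0.212 at high CO2 and 0.256 and 0.255 at normal CO2. The part of these medians in the shares that follow was not tested. On arrays 1 and 2, 40 probes were above 0 on both normal CO2 arrays and at 0 on both high CO2 arrays, 28 of them among the 80. In arrays 3 and 4 both high CO2 arrays were below both normal ones for 11 of the 40 (27.5%), against 24.9% of all probes, and above them for 6 (15%), against 43.2%. Only 4 of the 40 were again at 0 on both high CO2 arrays. On arrays 3 and 4 the same rule took 33 probes, 25 of them among the 80. In arrays 1 and 2 both high CO2 arrays were below both normal ones for 17 of the 33 (51.5%), against 47.1% of all probes, and above them for 8 (24.2%), against 25.6%. Here 6 of the 33 were again at 0 on both high CO2 arrays. The shares of probes that lay lower were near those of the whole table in both directions of the exercise. A probe at 0 on a normal CO2 array read here could not lie lower, whatever its other values. No normal CO2 array read was at 0 for 28 of the 40 and 25 of the 33, against 3205 and 3260 of all probes. Nothing is therefore read from the nearness of these shares. The share that lay higher in arrays 3 and 4 was not near that of the whole table. There the ranges overlapped for 57.5% of the 40, against 31.9% of all probes. A probe at 0 on a high CO2 array read here could not lie higher. In arrays 3 and 4 no high CO2 array was at 0 for 23 of the 40, against 3136 of all probes. Nothing is therefore read from these shares either.

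**Figure D5:**
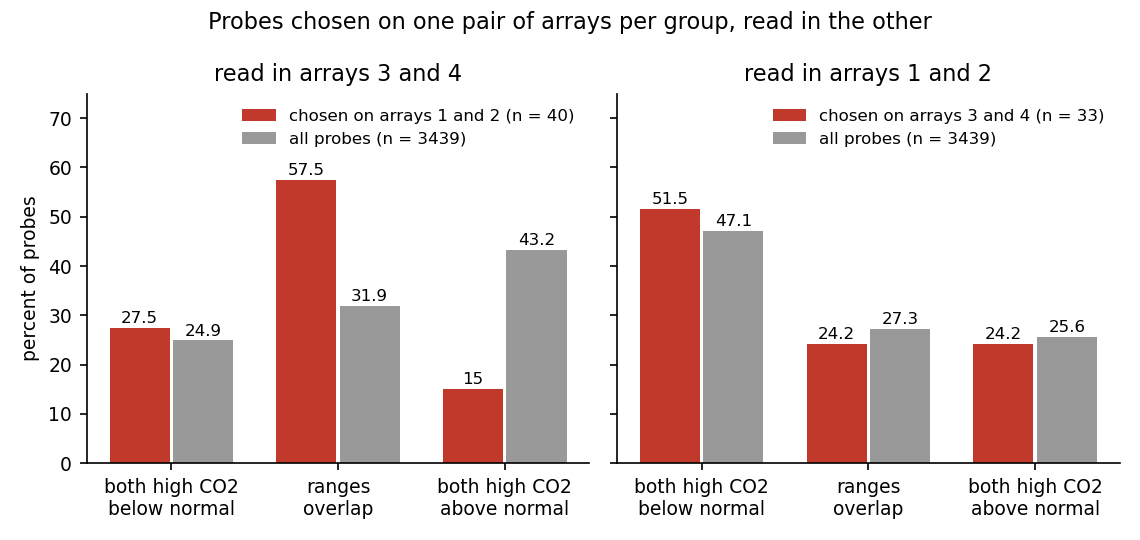
Percent of probes (vertical) whose high CO2 arrays both lay below, overlapped with or both lay above the normal CO2 arrays, for probes chosen on the other pair of arrays (red) and for all 3439 probes (grey). Values are as deposited, without scaling. The red and grey bars for lower probes stand at 27.5% and 24.9% in arrays 3 and 4 and at 51.5% and 47.1% in arrays 1 and 2. Those for higher probes stand at 15% and 43.2% in arrays 3 and 4 and at 24.2% and 25.6% in arrays 1 and 2.

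The same reading was tested with limma, fitted on all 3439 probes with values at 0 set to a floor. In arrays 3 and 4, 5 of the 40 probes (12.5%) were lower at high CO2 at an adjusted p under 0.05, against 13.4% of all probes, and 2 were higher, against 12.4%. In arrays 1 and 2, 4 of the 33 (12.1%) were lower, against 16.6% of all probes, and 2 were higher, against 13.8%. With the probes at the floor on all 4 arrays left out, an alternative chosen after seeing the data, 8 of 33 (24.2%) were lower in arrays 3 and 4, against 14.8% of all probes, and 6 of 29 (20.7%) in arrays 1 and 2, against 17.8%. That alternative keeps a chosen probe only where an array of the tested pair is above the floor, so nothing is read from its higher shares. With 1 array of arrays 3 and 4 left out, 0 of the 40 passed, as 0 of all probes did by limma, with 5 to 10 of the 40 (12.5% to 25%) lower at an unadjusted p under 0.05, against 15.5% to 21.4% of all probes. In arrays 1 and 2 without either normal array 0 of the 33 and 0 of all probes passed, with 6 and 9 of the 33 (18.2% and 27.3%) lower at an unadjusted p under 0.05 by limma, against 15.6% and 16.1% of all probes. Without high CO2 replicate 1, 2 of the 33 were lower and 4 higher, against 8.72% and 6.37% of all probes.

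Of the 20 named genes, 13 were also taken by the rule on a pair of arrays and read in the other pair. There limma called 1 lower, 1 higher and 11 neither way. The 20 must be above 0 on the tested normal CO2 arrays too, so the tested arrays had a part in choosing these 13. Of the 16 named probes that the choice on pairs took, AT5G46420, AT5G48130 and AT5G19370 lay outside the 20. They too were called neither way. AT1G50750, chosen on arrays 1 and 2, had a log2 fold change of -1.72 ± 0.15 in arrays 3 and 4 (SE, adjusted p = 0.0206 by limma, n = 2 arrays each), with 0.0413 and 0.0516 at high CO2 and 0.12 and 0.116 at normal CO2. AT1G29040, chosen on arrays 3 and 4, rose in arrays 1 and 2, with a log2 fold change of 1.89 ± 0.065 (SE, n = 2 arrays each, adjusted p = 0.0106 by limma). Both its normal values lay under the floor of 0.03, so that the fold is set by the floor. Set to the same floor, the normal values have no spread, so this SE and p-value do not measure the spread of the normal arrays. The 11 genes that did not pass had log2 fold changes of -1.03, in AT4G38670, to 0.80, in AT5G66090, with 7 below 0 and 4 above. Probes 4165 and 3502 are at 0 on all 4 high CO2 arrays, so both pairs of arrays chose them, and they are counted among the probes tested in each.

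Probes of the exchanged rule were read in the same way. On arrays 3 and 4, 24 probes were above 0 on both high CO2 arrays and at 0 on both normal ones. In arrays 1 and 2, 3 of the 24 (12.5%) were higher at high CO2, against 13.8% of all probes. Probe 3099, which has no gene name, was the only 1 of the 24 called lower, against 16.6% of all probes. Of the 24, 12 were at the floor on all 4 arrays tested, and with such probes left out 4 of 12 (33.3%) were higher, against 14.9% of all probes. That alternative was chosen after seeing the data. It keeps a chosen probe only where a tested array is above the floor, so nothing is read from its higher share. In arrays 1 and 2 AT2G17670 rose with a log2 fold change of 1.76 ± 0.14 (SE, n = 2 arrays each, adjusted p = 0.0157 by limma). AT1G17850 rose there by 1.92 ± 0.087 (SE, n = 2 arrays each, adjusted p = 0.0118 by limma), against normal values under the floor. Its SE and p-value thus hold no spread of the normal arrays. On arrays 1 and 2 the exchanged rule took 11 probes, of which 9 were at the floor on all 4 of the other arrays, where no difference could be measured. Of the 2 left, limma called 0 higher in arrays 3 and 4, against 13.8% of all probes above the floor on an array. At an unadjusted p under 0.05 by limma 0 were higher, against 19.6% of all. With 2 probes nothing is read from this.

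The 80 probes were not spread evenly along the probe numbers of the table. Of the 80, 27 (33.8%) had another of the 80 within 6 probe numbers, against 579 of the 3359 other probes (17.2%). Among them were AT3G08000 and PRA1.B3, numbers 3979 and 3982, with the unnamed probe 3980 between them, and AT3G53470 and AT5G49590, numbers 3571 and 3577. The count and its window were not among the analyses fixed in advance. The comparison was with all other probes and not with dim ones alone. The labels give no array layout, and a part of position in the zeros was not tested.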

How the data were processed

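The authors deposited a relative intensity per probe, on a linear scale that runs from 0 to 100 on every array, for 3439 probes. Background treatment, normalization and the rule behind a 0 were not given in the sources used here. Intensities are printed as deposited. Groups and replicate numbers come from the sample titles. Probes were named through the platform annotation and the gene table of assembly TAIR10.1, which matched 690 of 692 probes with 1 gene. Every chosen probe with 1 gene is named.

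For the fits, positive values of the 4 arrays were quantile normalized, values at 0 or under the percentile 5 of positive values (0.0335 in arrays 3 and 4, 0.03 in arrays 1 and 2) were set to it, and log2 values were fitted in limma 3.58.1, run under R 4.3.3 (lmFit, eBayes, two-sided, Benjamini-Hochberg over all probes, threshold 0.05). A positive log2 fold change means higher at high CO2. The fit was tested on simulated data. Counts and plots were made in Python 3.11.15 with matplotlib 3.10.9.

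The members and lists were chosen with earlier results of these data known. Keyword classes and promoter motifs were not analysed here, for want of descriptions and sequences. Same-numbered arrays of the groups had deviations correlated at 0.094, 0.116, 0.137 and 0.073, not all over 0.1, so the fits reported do not pair samples by number. Alternatives changed the number of zeros, the meaning of 0, the scaling, the floor, the filter, the variance, the replicate block and the arrays used.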

Additional observations from a re-analysis of the deposited data

Results flagged for a closer look

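The named probes were checked in the group where they are above 0, which made 26 sets of 4 arrays. In 1 of the 26 an array stood apart from the rest, and chance gives about 1.3. For AT1G21350 at high CO2 the gap from replicate 2 to its nearest neighbour took up 0.856 of the range, with 0.14 on replicate 2 and 0.00469, 0.0241 and 0.0128 on replicates 1, 3 and 4.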

How the results depend on the processing

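The count of 80 probes was 230 with at least 1 high CO2 array at 0, 16 with at least 3 and 2 with all 4, and the exchanged rule's 12 were 56, 1 and 0. Asking for 3 arrays above 0 in the other group gave 114 and 44, and taking the percentile 5 of each array's positive values in place of 0 gave 120 and 57. Leaving out each array gave 44 to 94 and 3 to 24. The lowest counts were 44 without high CO2 replicate 1 for the rule and 3 without normal CO2 replicate 3 or 4 for the exchanged rule. The median normal CO2 level was 0.0532 to 0.0632 without each normal array, 0.0578 with the arrays scaled to the same median and 0.0588 with medians over arrays, all within the spread of the array medians.

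In arrays 3 and 4 the 5 held-out calls were 3 with the floor at the percentile 10 (13.1% of all probes lower), 0 without the dimmest 25% of probes, which left 3 of the 40 in the fit (22.1% of all), 8 without probes at the floor (14.8% of all) and 0 without any 1 array (0% of all). In arrays 1 and 2 the 4 calls were 0 without the dimmest probes, with 3 of the 33 left (24.1% of all probes lower), and 0 to 4 without 1 array. They were 0 without either normal array (0% of all), 2 without high CO2 replicate 1 (8.72% of all) and 4 without high CO2 replicate 2 (8.43% of all). Without high CO2 replicates 1 and 2, 4 and 3 of the 33 (12.1% and 9.09%) were called higher, against 6.37% and 6.02% of all probes. The other settings gave 4 or 5 calls in arrays 3 and 4 and 3 to 6 in arrays 1 and 2. With the replicate block limma called 0 of the chosen and 0 of all probes in either fit, with 6 and 5 of the chosen (15.0% and 15.2%) lower at an unadjusted p under 0.05, against 21.2% and 22.4% of all probes. The causes of these moves were not tested beyond the probes and arrays that a setting removes. The blocked fit leaves 1 residual degree of freedom per probe.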
